A study of Rattus norvegicus with 17 samples.

Results

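The genes described here are the protein-coding entries of a rat muscle count table whose names begin with Nduf, the name family of respiratory complex I, its assembly factors and a few relatives. The rule found 47 entries under 45 names among 32495 named entries, and 44 of them had enough counts to be tested, among 11856 genes tested in all. The 3 others were a second Ndufv3 entry with 6 counts over all 17 libraries, and Ndufa1 and a second Ndufa10l1 entry, both listed at 0. Ndufs6, Ndufb1 and Ndufa10 are not analysed here. The 7 complex I subunits encoded in mitochondrial DNA (Mt-nd genes) were listed at 0 in every library, so only the nuclear side of the enzyme is described.

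Gastrocnemius, a calf muscle with mostly fast fibers, was sampled in 3 groups: healthy rats (5 samples), tumor-bearing rats with no chemotherapy (5 samples) and tumor-bearing rats with chemotherapy (6 samples). All rats were on the control diet. The strain, age and sex of the rats, the tumor, the agent and the times are not given in the labels. The labels do not say that each library came from its own animal, so p-values measure the spread between these samples.

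Raw counts on named genes ranged from 3020821 to 15719080 per library. Chemotherapy libraries 11 and 12 differed by a chi-square of only 2.04 per degree of freedom, against 5.47 for the next closest pair of a group, and were summed into 1 sample called library 11. Healthy libraries 1, 3 and 4 lay at the low end of the first principal component of expression, at -22.3, -26.7 and -34.9, followed by tumor libraries 8 and 10 at -16.9 and -11.0. Healthy library 5 lay at -5.64, chemotherapy library 11 at -4.04, healthy library 2 at 8.58 and the others between 5.74 and 21.9. The alignment names end in MB for healthy libraries 1 to 4 and library 11 and in VM for the others. Its meaning is not given, and within the healthy group only library 5 carries VM. Muscle fiber markers were abundant in every sample, with Acta1, Ckm, Myh4, Tnnt3 and Mylpf summing to 159212 CPM (counts scaled to a common library size) or more.

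Complex I is the entry point of the respiratory chain. It takes electrons from NADH in its N module, passes them through iron-sulfur clusters to ubiquinone in the Q module, and pumps protons through its membrane arm, whose accessory subunits lie in a proximal and a distal part. Core subunits carry out catalysis, accessory subunits surround and stabilise them, and assembly factors build the enzyme without staying in it. Skeletal muscle relies on it for sustained contraction, and oxidative fibers hold more of it than fast glycolytic ones. Ndufa4 carries the family name but is now counted as a subunit of complex IV, and Ndufa4l2 is its hypoxia-inducible relative.

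Many respiratory genes carry binding motifs for NRF1, ETS factors such as GABP, and YY1 near their start. RefSeq windows of 300 bases around the start (rat build GRCr8) were matched by name for 39 of the 44 tested genes. TGCGCA, a part of the NRF1 motif that reads the same on both strands, stood in 12 of the 39 windows (30.8%). It stood in 7.68% of the 27457 windows of all RefSeq gene names, which are not limited to the genes tested here. The ETS motif CCGGAA stood in 12 (30.8%, against 15.8%) and the YY1 motif AAGATGG in 9 (23.1%, against 7.30%). AAGGTCA, a part of the ERR motif, stood in 3 (7.69%, against 4.37%) and the TATA motif TATAAA in 2 (5.13%, against 14.3%). Each was searched on both strands. None of these motifs contains another. Median GC content was 57.0% in the 39 windows and 52.3% in all windows. The median count of the letters CG in a row was 20 in the 39 windows and 7 in all windows. TGCGCA and CCGGAA each contain CG. Both measures bear on how often such motifs occur, and the shares were not matched for either. The 4 windows below belong to genes that differed between chemotherapy and healthy muscle in opposite directions, Ndufa5 and Ndufs5 higher, Ndufa9 and Ndufb10 lower, and all hold TGCGCA. They lie on the minus strand at chr4:53971186-53971485, chr5:141264353-141264652, chr4:161374121-161374420 and chr10:14255917-14256216, in that order, and are written 5′ to 3′ along the gene with motifs in capitals. TGCGCA is marked in each, AAGGTCA (as its reverse complement TGACCTT) in Ndufs5, and AAGATGG in Ndufa9.
Ndufa5: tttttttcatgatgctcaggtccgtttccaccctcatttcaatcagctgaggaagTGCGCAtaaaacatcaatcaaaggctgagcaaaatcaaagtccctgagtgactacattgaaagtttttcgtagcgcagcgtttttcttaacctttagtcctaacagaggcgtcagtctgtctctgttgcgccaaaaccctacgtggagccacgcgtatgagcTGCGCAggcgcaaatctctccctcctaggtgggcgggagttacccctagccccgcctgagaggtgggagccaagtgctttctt
Ndufs5: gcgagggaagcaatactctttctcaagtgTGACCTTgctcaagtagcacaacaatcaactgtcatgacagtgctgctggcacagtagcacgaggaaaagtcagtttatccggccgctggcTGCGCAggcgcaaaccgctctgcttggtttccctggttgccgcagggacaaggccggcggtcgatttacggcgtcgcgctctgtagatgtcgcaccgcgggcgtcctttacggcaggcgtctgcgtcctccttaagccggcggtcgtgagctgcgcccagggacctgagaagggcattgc
Ndufa9: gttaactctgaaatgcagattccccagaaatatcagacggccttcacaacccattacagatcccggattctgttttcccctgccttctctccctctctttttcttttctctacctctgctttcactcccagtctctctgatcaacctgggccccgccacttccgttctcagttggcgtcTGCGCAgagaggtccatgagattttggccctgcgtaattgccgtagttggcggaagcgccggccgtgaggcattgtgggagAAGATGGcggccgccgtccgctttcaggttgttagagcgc
Ndufb10: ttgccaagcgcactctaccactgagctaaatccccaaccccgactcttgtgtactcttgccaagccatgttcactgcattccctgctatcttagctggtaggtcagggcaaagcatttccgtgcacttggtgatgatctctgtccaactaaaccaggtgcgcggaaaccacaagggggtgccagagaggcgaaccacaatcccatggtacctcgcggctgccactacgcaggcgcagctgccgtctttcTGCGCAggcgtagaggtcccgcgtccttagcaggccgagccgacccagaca
Of the other genes called in that comparison, Ndufs8 held the ETS motif, Ndufs4 the YY1 motif, and the windows of Ndufb3, Ndufa4 and Ndufb11 held none of the 5. A match is a description of letters, and binding was not measured.

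The question of the first comparison is how muscle of tumor-bearing rats given chemotherapy differs from healthy muscle. Genes of the enzyme were called in both directions: 4 were higher (Ndufb3, Ndufa5, Ndufs4 and Ndufs5) and 4 lower (Ndufs8, Ndufa9, Ndufb10 and Ndufb11). With Ndufa4 of complex IV, also higher, 9 of the 44 tested genes (20.5%) passed an adjusted p of 0.05. The tests were edgeR's quasi-likelihood test with Benjamini-Hochberg adjustment over all 11856 genes, of which 13.7% were called in this comparison (7.3% higher, 6.41% lower). The median log2 fold change of the 44 genes was -0.04, against -0.02 over all genes tested, with 20 positive and 24 negative. Summed over the 44 genes, expression was 7742 ± 626 CPM in healthy muscle (SD, n = 5), 7137 ± 887 in tumor muscle (n = 5) and 7561 ± 389 in chemotherapy muscle (n = 6), with overlapping ranges.

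The number of calls moved with the libraries and settings used, among the Nduf genes and over the whole table alike. Leaving out healthy library 1, 3 or 4, or chemotherapy library 13, 14, 15 or 16, left 0 of the 44 genes called. Over all genes 0 were called in the first 6 of these settings, and 261 higher and 268 lower of 11811 without chemotherapy library 16. The 9 genes kept their sign in these 7 settings, with log2 fold changes of 0.38 to 1.21 in size (0.46 to 1.21 with all samples) and edgeR adjusted p of 0.0517 to 0.141. Without healthy library 2, 11 of the 44 were called higher and 12 lower, and 2024 and 1775 of 11995 genes in all. Without chemotherapy library 17 there were 3 higher among the 44, and 577 higher and 463 lower of 11796 genes. Without tumor library 8 or chemotherapy library 11 there were 15 in each case, against 1217 higher and 1070 lower of 11970 genes and 1505 and 1384 of 11828.

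Without healthy libraries 1, 3 and 4 together, 0 of the 44 and 0 of 12260 genes were called. The 9 genes then kept their sign, but with log2 fold changes of 0.12 to 0.59 in size and edgeR adjusted p of 0.899 to 0.941. With MB or VM as a term, 0 were called among the 44 and over all genes. The 9 genes kept their sign, with log2 fold changes of 0.33 to 0.84 in size. Within the VM libraries alone (1 healthy sample) they also kept their sign, at 0.21 to 1.19 in size. MB marks healthy libraries 1 to 4, chemotherapy library 11 and no tumor library, so suffix and group cannot be cleanly separated. With libraries scaled by total counts only, the median of all genes rose from -0.02 to 0.12. Of the 44, 12 were then called higher and 1 lower (Ndufs8), and of all genes 1669 higher and 348 lower. With DESeq2 size factors 4 of the 44 were called higher and 4 lower, and 839 higher and 706 lower of 11856 genes in all. In such bulk samples, fewer cells of a type and less RNA per cell cannot be told apart.

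**Figure D1:**
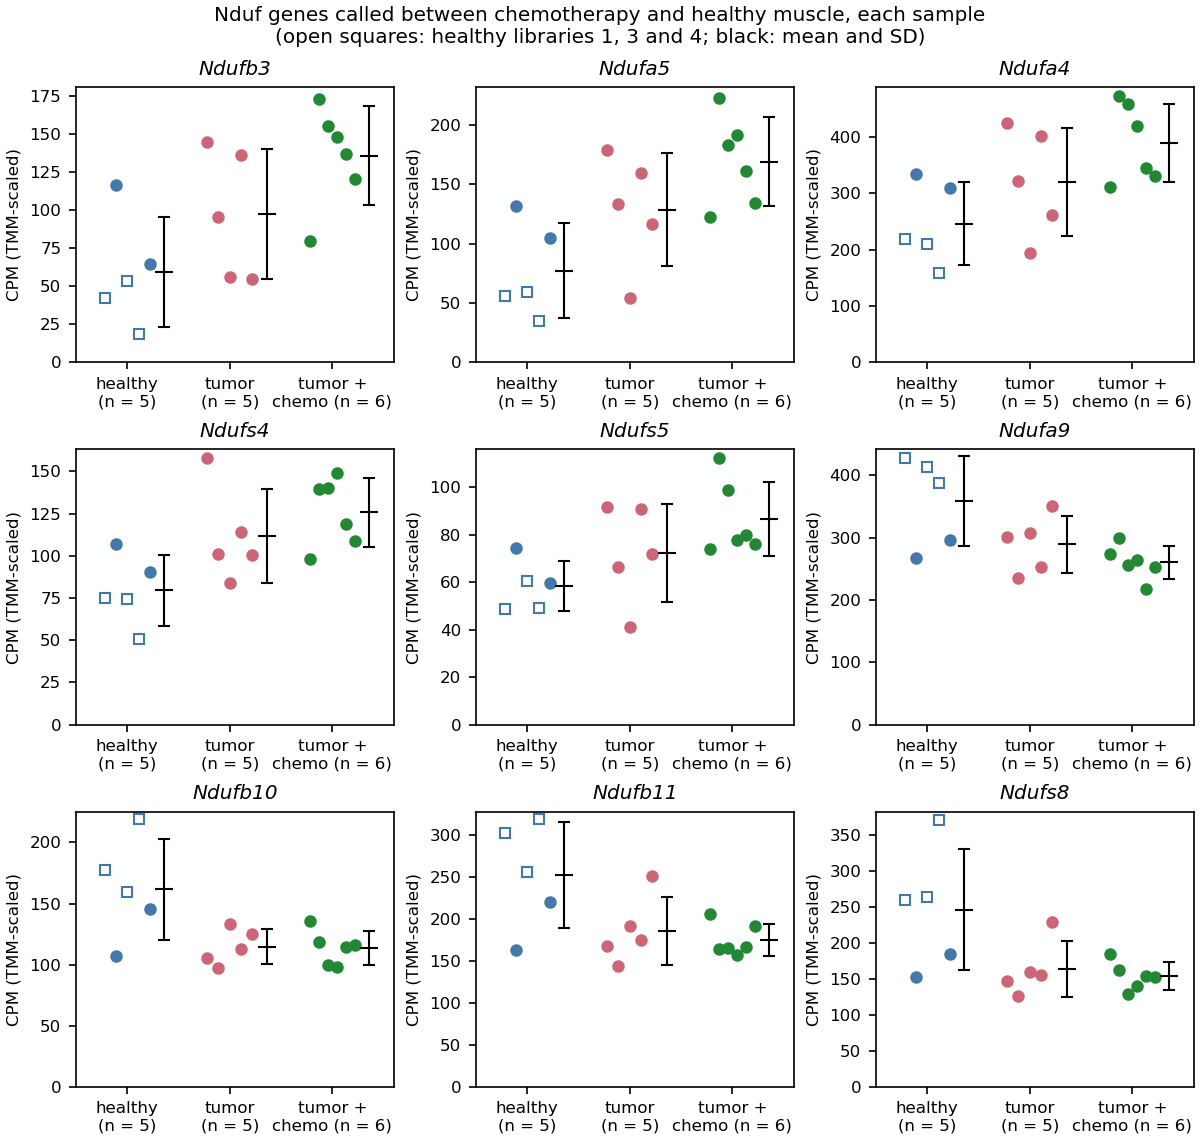
Expression in CPM (vertical axes from 0) of the 9 genes called between chemotherapy and healthy muscle, 1 point per sample, with mean and SD in black beside each group. Open squares mark healthy libraries 1, 3 and 4. They are the low points of Ndufb3, Ndufa5, Ndufs4 and Ndufa4 and the high points of Ndufb11, Ndufb10, Ndufa9 and Ndufs8 in the healthy group. In Ndufs5, healthy library 3 (60.8 CPM) lay just above library 5 (59.9 CPM).

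The plot of called genes by sample shows how much the healthy group spread. The genes are taken below by their place in the enzyme, with log2 fold changes ± SE and adjusted p from the same edgeR fit. Levels of different genes are not compared, since CPM is not divided by transcript length.

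In the N module, which oxidises NADH, 1 of 9 tested genes was called, and the median log2 fold change was 0.03 for chemotherapy against healthy. Ndufs4, an accessory subunit that holds the N module in place and whose loss causes Leigh syndrome, stood at 75.0, 107, 74.4, 50.8 and 90.5 CPM in healthy libraries 1 to 5. It read 158, 101, 84.1, 114 and 100.5 CPM in tumor libraries 6 to 10, and from 98.1 to 149 CPM with a median of 129 in chemotherapy muscle. Only healthy library 2 reached into the chemotherapy range. Its mean rose from 79.6 ± 20.9 to 126 ± 20.3 CPM, a log2 fold change of 0.66 ± 0.19 (adjusted p = 0.0334), or 1.58-fold. Ndufs4 has a pseudogene in RefSeq and overlaps a transfer RNA gene, so its counts could include other reads.

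Ndufs1, the largest core subunit, which carries iron-sulfur clusters, followed a like pattern without passing the threshold. Its levels were 398, 489, 276, 225 and 436 CPM in healthy libraries 1 to 5 and 654, 496, 397, 549.9 and 423 CPM in tumor libraries 6 to 10. Chemotherapy samples lay between 403 and 689 CPM with a median of 552, for a log2 fold change of 0.59 ± 0.20 (adjusted p = 0.0512). Healthy libraries 2 and 5 lay inside the chemotherapy range and the 3 others below it. Ndufv1, the core subunit that binds NADH and the flavin, had a log2 fold change of -0.22 ± 0.12 (adjusted p = 0.203), and its iron-sulfur partner Ndufv2 one of 0.26 ± 0.14 (adjusted p = 0.174). Ndufv2 and the accessory subunit Ndufa6 nevertheless did not overlap between the groups: Ndufv2 was at most 383 CPM in healthy and at least 393 CPM in chemotherapy muscle, and Ndufa6 at most 133 and at least 145 CPM. With Ndufaf7, described below, they were the 3 of 44 genes (6.82%) whose groups did not overlap, all higher, against 4% of all genes in either direction, 2.02% higher and 1.97% lower.

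The Q module, where ubiquinone is reduced, held both directions within 6 genes: 1 was called higher and 2 lower, and the median was -0.38. Ndufa5, a small accessory subunit of this module, read 55.5, 132, 59.6, 35.1 and 105 CPM in healthy libraries 1 to 5. It read 179, 134, 54.5, 159 and 117 CPM in the tumor libraries, and 122 to 222 CPM with a median of 172 after chemotherapy. Healthy libraries 1, 3 and 4 and tumor library 8 were low, and healthy library 2 overlapped the chemotherapy group. The log2 fold change for chemotherapy against healthy was 1.13 ± 0.31 (adjusted p = 0.0322), or 2.19-fold. It was 0.51 without healthy libraries 1, 3 and 4. RefSeq lists 4 pseudogenes of Ndufa5, so its counts are uncertain to that extent.

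Ndufs8, a core subunit with iron-sulfur clusters that hand electrons towards ubiquinone, ran the other way. It read 260.1, 152, 264, 370.4 and 185 CPM in healthy libraries 1 to 5, and 147, 126, 160.1, 155 and 229 CPM in the tumor libraries. After chemotherapy it lay between 128 and 185 CPM with a median of 153. The same healthy libraries 1, 3 and 4 that were lowest for Ndufa5 were highest here, library 2 lay inside the chemotherapy range and library 5 at its upper end. Its log2 fold change was -0.68 ± 0.19 (adjusted p = 0.0334), and -0.14 without those 3 libraries.

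Ndufa9, an accessory subunit that binds NADPH where the peripheral arm meets the membrane, also fell. Its healthy values were 428, 268, 413, 388 and 297 CPM, its tumor values 302, 236, 308, 253 and 350.1 CPM, and its chemotherapy values 217 to 299 CPM with a median of 259.8. Healthy libraries 2 and 5 again sat within the chemotherapy range. The log2 fold change was -0.46 ± 0.15 (adjusted p = 0.0427), and -0.12 without healthy libraries 1, 3 and 4. Ndufs3 (-0.38 ± 0.16, adjusted p = 0.092) and Ndufs7 (-0.39 ± 0.20, adjusted p = 0.160), core subunits on the same path, had log2 fold changes of the same sign that did not pass.

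**Figure D2:**
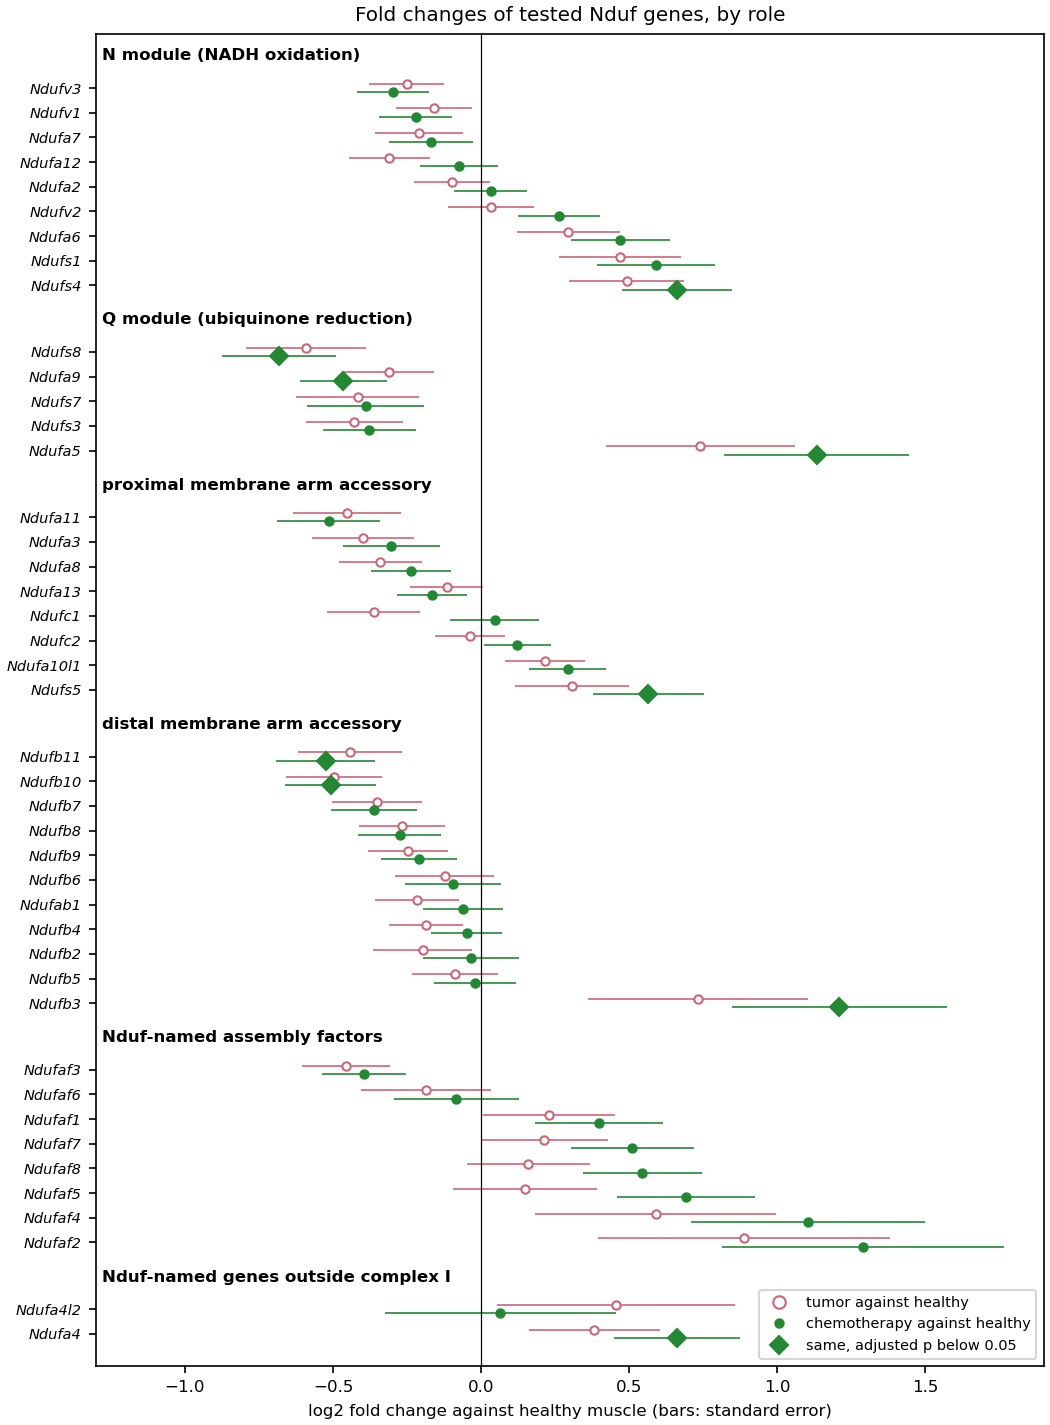
Log2 fold change against healthy muscle (horizontal axis, bars are the standard error) of tested Nduf genes, grouped by role, for tumor (open circles) and chemotherapy (filled). Diamonds mark the 9 genes with an adjusted p below 0.05 in chemotherapy, which lie from -0.68 (Ndufs8) to 1.21 (Ndufb3). Each of the 4 sections for parts of the enzyme holds genes on both sides of 0 and at least 1 diamond.

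The accessory subunits of the membrane arm make up the largest part of the family. In the proximal arm 1 of 8 tested genes was called. Ndufs5, which lies on the intermembrane side, read 48.7, 74.4, 60.8, 49.2 and 59.9 CPM in healthy libraries 1 to 5, and 91.6, 66.4, 41.2, 90.8 and 72.1 CPM in the tumor libraries. After chemotherapy it read 74.0 to 112 CPM with a median of 79.0, and healthy library 2 alone reached that range. The log2 fold change was 0.57 ± 0.19 (adjusted p = 0.0495), with 2 pseudogenes named in RefSeq. Ndufa11, a membrane subunit at the joint with other respiratory complexes, had the opposite sign and an adjusted p of 0.0509 (log2 fold change -0.52 ± 0.17). It read 334, 169, 322, 359 and 281 CPM in healthy, 202, 159, 213.5, 212.5 and 287 CPM in tumor and 184 to 243 CPM (median 200.2) in chemotherapy muscle. Healthy library 2 lay below the lowest chemotherapy sample and the 4 others above the highest.

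In the distal arm 10 of 11 genes had negative log2 fold changes, 2 of them called, and 1 was called higher. Ndufb10, an accessory subunit on the intermembrane side, read 177, 107, 159, 219 and 146 CPM in healthy libraries 1 to 5 and 106, 97.4, 133, 113 and 125 CPM in the tumor libraries. It lay between 98.1 and 136 CPM after chemotherapy with a median of 115, below every healthy sample but library 2. The log2 fold change was -0.51 ± 0.15 (adjusted p = 0.0398). Ndufb11, a small membrane subunit, read 302, 163, 255, 319 and 219.9 CPM in healthy, 168, 144, 191, 175 and 251 CPM in tumor and 157 to 206 CPM (median 166) in chemotherapy muscle. It too overlapped only through healthy library 2, and its log2 fold change was -0.53 ± 0.17 (adjusted p = 0.0450).

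Ndufb3, another small distal subunit, was the exception of its arm and had the largest log2 fold change of the called genes. It read 42.5, 116, 53.6, 18.8 and 64.3 CPM in healthy libraries 1 to 5, and 145, 95.2, 55.9, 136 and 54.7 CPM in the tumor libraries. After chemotherapy it read 80.0 to 173 CPM with a median of 143. The log2 fold change was 1.21 ± 0.36 (adjusted p = 0.0392), or 2.31-fold, and 0.59 without healthy libraries 1, 3 and 4. Healthy library 2 was the only healthy sample inside the chemotherapy range, and tumor libraries 8 and 10 were at healthy levels. RefSeq names 3 similar copies of Ndufb3, and reads may have been shared among them.

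The Nduf-named assembly factors held no call. Of 8, 6 had positive log2 fold changes and 2 negative, the median was 0.53, and 5 were higher and 1 lower at an unadjusted p below 0.05, a level that 36.4% of all genes passed (18.9% higher, 17.5% lower). Ndufaf2, a relative of Ndufa12 that acts late in assembly, had 1.29 ± 0.48 (adjusted p = 0.0663) at a low level of 2.95 ± 2.58 CPM in healthy and 6.74 ± 1.79 CPM in chemotherapy muscle. Ndufaf4, which works on the Q module, had 1.11 ± 0.40 (adjusted p = 0.0614), and 5 copies are named in RefSeq. Ndufaf5, which hydroxylates Ndufs7, had 0.69 ± 0.23 (adjusted p = 0.0514), and its partner Ndufaf8 had 0.54 ± 0.20 (adjusted p = 0.0651). Ndufaf7, a methyltransferase, had 0.51 ± 0.21 (adjusted p = 0.0859), with at most 12.9 CPM in healthy and at least 13.2 CPM in chemotherapy muscle. Ndufaf1, of the membrane arm assembly complex, had 0.40 ± 0.22 (adjusted p = 0.188), and Ndufaf6, which acts early in assembly, had -0.08 ± 0.21 (adjusted p = 0.797).

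Ndufaf3, the partner of Ndufaf4 in assembly, had the opposite sign. It read 75.7, 45.9, 72.5, 79.2 and 60.2 CPM in healthy libraries 1 to 5, 43.1, 40.8, 55.8, 49.1 and 55.0 CPM in the tumor libraries, and 46.0 to 56.7 CPM (median 50.7) after chemotherapy. Every healthy sample but library 2 lay above both other groups. The log2 fold change was -0.40 ± 0.14 (adjusted p = 0.0605) for chemotherapy and -0.46 ± 0.15 (adjusted p = 0.218) for tumor, and the gene overlaps Impdh2 in RefSeq. Among the genes outside the enzyme, Ndufa4 was called higher: 219, 334, 209.7, 158 and 309 CPM in healthy, 424, 321, 194, 401 and 262 CPM in tumor, and 312 to 472 CPM (median 382) in chemotherapy muscle. Its log2 fold change was 0.66 ± 0.21 (adjusted p = 0.0456), with healthy library 2 alone inside the chemotherapy range, and RefSeq names 2 pseudogenes. Ndufa4l2 had 0.06 ± 0.39 (adjusted p = 0.922).

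The tumor without chemotherapy, set against healthy muscle, gave no call among the 44 genes, and 0% of all genes were called by the same test. The smallest adjusted p of the 44 was 0.218, of Ndufaf3. At an unadjusted p below 0.05, 14 were counted, 3 higher and 11 lower, when 18% of all genes passed that level (8.88% higher, 9.12% lower). The DESeq2 Wald test and limma-voom also called 0 of the 44. Over all genes, DESeq2 called 11 higher and 18 lower of 9095, and limma-voom 0 of 11856. The median log2 fold change of the 44 was -0.14, against 0.01 over all genes, with 16 positive and 28 negative. It was -0.01 with total counts only (22 positive, 22 negative) and -0.02 without healthy libraries 1, 3 and 4 (20 positive, 24 negative). In 0 of the 44 genes did the groups not overlap (0.995% of all genes, 0.439% higher and 0.557% lower). Ndufs8 at -0.59 ± 0.20 (adjusted p = 0.221), Ndufb10 at -0.50 ± 0.16 (adjusted p = 0.221) and Ndufa5 at 0.74 ± 0.32 (adjusted p = 0.252) had the sign they had with chemotherapy. Both comparisons use the same healthy samples, so this is no separate evidence. Without healthy library 2, Ndufa11, Ndufaf3, Ndufb10, Ndufb11 and Ndufs8 were called lower, with adjusted p of 0.0445 to 0.0488, and of all 11995 genes 245 were called higher and 259 lower.

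Chemotherapy against tumor alone, which asks what chemotherapy adds, also gave 0 calls among the 44 genes, and 0% of all genes. By unadjusted p below 0.05, 2 of the 44 were higher and 0 lower (5.78% of all genes, 1.97% higher and 3.81% lower). These 2 were Ndufc1, a small membrane subunit, at 0.41 on the log2 scale, and Ndufaf5 at 0.54. The DESeq2 Wald test and limma-voom called 0 of the 44. Over all genes, DESeq2 called 1 higher and 7 lower of 7716, and limma-voom 0 of 11856. The median log2 fold change of the 44 was 0.10, with 33 positive and 11 negative, against 0.00 over all genes. All 8 assembly factors had positive values, from 0.06 to 0.54, with a median of 0.34. In 0 of the 44 genes did the groups not overlap, against 0.481% of all genes.

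**Figure D3:**
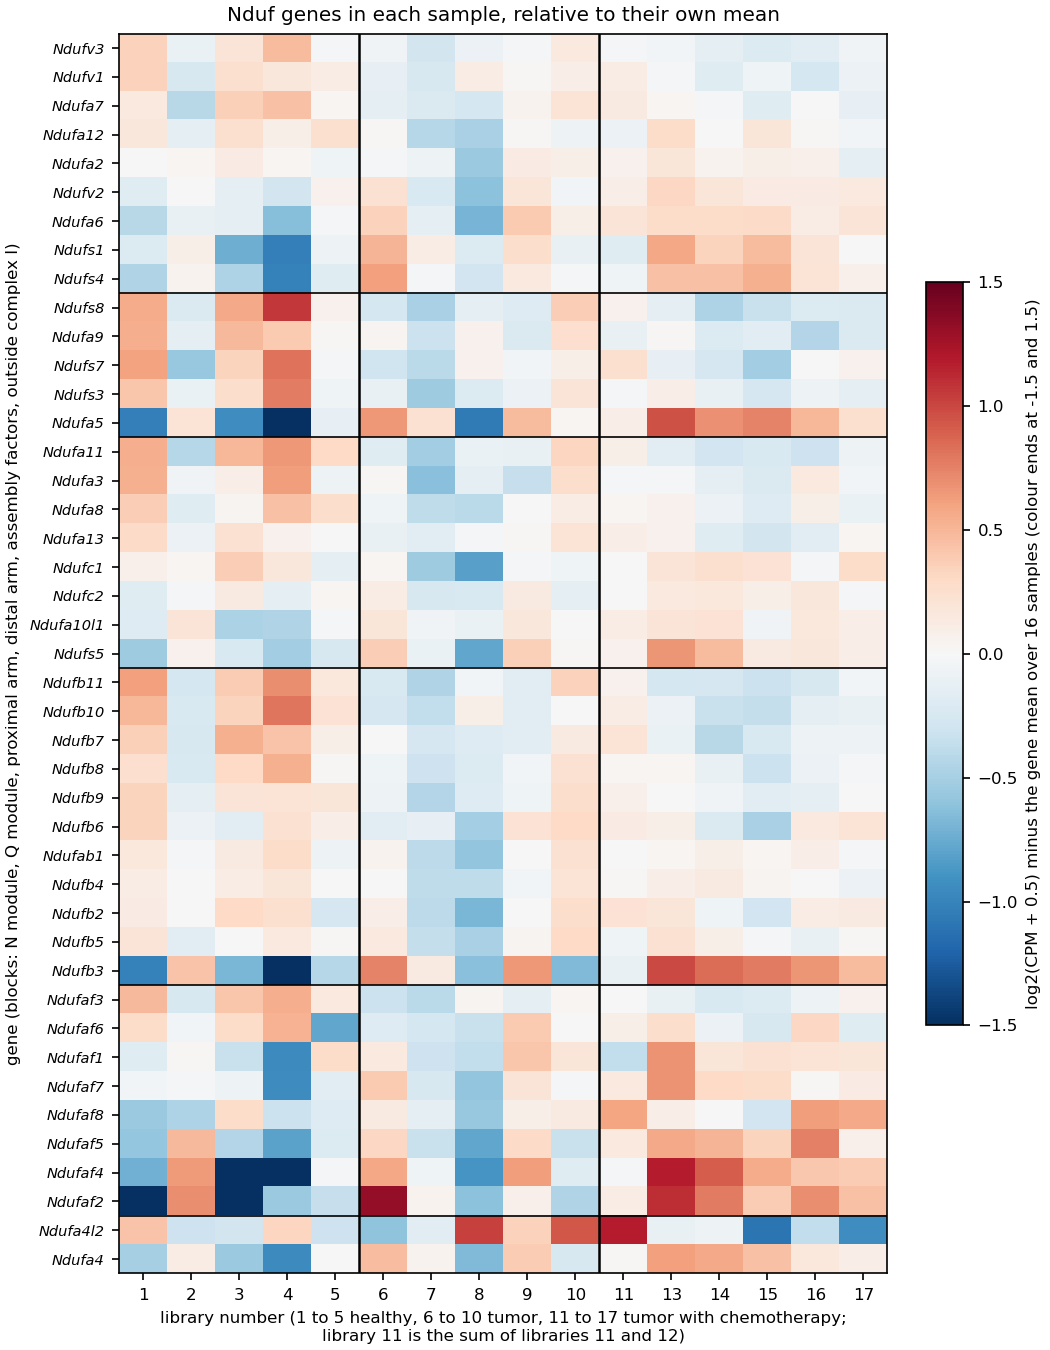
Tested Nduf genes (rows, in blocks by role) in each of 16 samples (columns by library number), coloured by how far log2(CPM + 0.5) lies from that gene's mean over the samples. Healthy libraries 1, 3 and 4 show both the strongest blue (Ndufb3, Ndufa5, Ndufaf2, Ndufaf4) and clear red (Ndufs8, Ndufb11), while tumor libraries 7 and 8 are blue over most rows.

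The map of deviations by sample shows how the genes spread within each group. In healthy library 4 the 44 genes spanned 3.23 log2 units, from -2.17 for Ndufb3 to 1.06 for Ndufs8, and in libraries 3 and 1 they spanned 2.70 and 2.15. In healthy libraries 2 and 5 they spanned 1.26 and 1.08. Tumor libraries 7 and 8 were low across the family instead, with 39 and 38 of the 44 genes below their own mean. The median SD within a group was 0.32 log2 units in healthy, 0.30 in tumor and 0.15 in chemotherapy muscle, so the chemotherapy samples had the smallest spread by this measure.

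**Figure D4:**
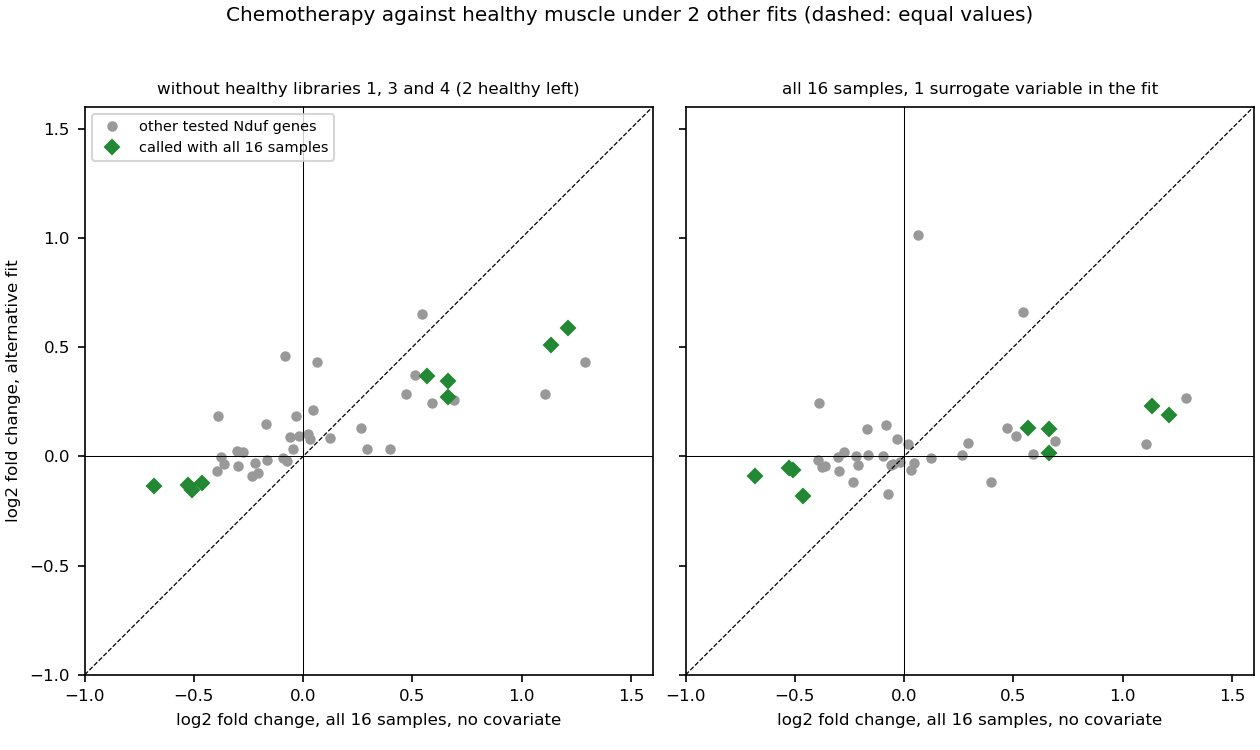
Log2 fold change of chemotherapy against healthy muscle for the 44 genes in the fit with all 16 samples (horizontal axes) and in a changed fit (vertical axes): without healthy libraries 1, 3 and 4 on the left, with 1 surrogate variable on the right. The 9 called genes (diamonds) keep their sign in both but lie closer to 0 than the dashed line of equal values, at 0.12 to 0.59 on the left and 0.02 to 0.23 on the right in size.

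The plot of changed fits shows the size of the differences when the healthy spread is removed or modelled. Healthy libraries 1, 3 and 4 hold the extreme healthy values of most of the called genes. The smaller fold changes without them therefore follow in part from which libraries were left out. With 1 surrogate variable, an estimate of unlabelled variation drawn from the expression data, the adjusted p of the 9 genes ran from 0.873 to 0.996. A variable of this kind can also take up part of a group difference.

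Genes around complex I were counted in the same fit. Since 0 genes of the whole table were called without healthy library 1, 3 or 4, without chemotherapy library 13, 14 or 15, with the suffix term or with 1 surrogate variable, none of the calls that follow passed in those settings. Of 40 tested entries for complexes II to V and cytochrome c, 7 were called higher and 2 lower in chemotherapy against healthy muscle. Over all genes, 7.3% were called higher and 6.41% lower. The median of the 40 was 0.03, and both directions occurred here too. Uqcrb and Cox6b1 were each entered more than once. The entries of Uqcrb had edgeR adjusted p of 0.0402 and 0.145. Sdhd, a membrane anchor of complex II, rose from 230.3 ± 62.4 to 396 ± 62.0 CPM (log2 fold change 0.78 ± 0.20, adjusted p = 0.0290). Cycs, cytochrome c, rose by 1.10 ± 0.31 (adjusted p = 0.0334), and Atp5mc1, a ring subunit of ATP synthase, fell by 0.70 on the log2 scale (adjusted p = 0.0302). Tumor against healthy gave 0 calls in this list and a median of -0.09.

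Of 12 tested complex I assembly factors with other names, 1 was called: Lyrm2, which rose from 6.16 ± 1.53 to 13.2 ± 2.27 CPM in chemotherapy muscle (1.12 ± 0.26, adjusted p = 0.0271). The list had a median of 0.42, and 7 were higher and 2 lower at an unadjusted p below 0.05. Of all genes, 36.4% passed that level (18.9% higher, 17.5% lower). Among 10 tested regulators of respiratory genes, 2 were called higher and 1 lower. Gabpa, the DNA-binding part of the ETS factor GABP, rose from 15.7 ± 4.24 to 28.4 ± 4.98 CPM (0.87 ± 0.22, adjusted p = 0.0289). Tfam, which packages and transcribes mitochondrial DNA, rose by 0.58 ± 0.19 (adjusted p = 0.0495), and Pprc1, a coactivator, fell by 0.55 on the log2 scale (adjusted p = 0.0375).

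Markers of other cells and fibers differed between the groups and between the healthy libraries. Summed over 5 fibroblast genes, healthy libraries 1 and 4 had 14211 and 14136 CPM and the other healthy libraries 4524 to 7561, tumor muscle ranged from 2778 to 12980 and chemotherapy muscle from 2222 to 10789. In the comparison of chemotherapy with healthy muscle, 2 of 5 fibroblast genes, 2 of 5 muscle fiber genes and 3 of 5 smooth muscle and pericyte genes were called lower. Of all genes, 6.41% were called lower and 7.3% higher. The muscle fiber sum was 196139 to 298135 CPM in healthy and 160094 to 201887 CPM in chemotherapy muscle. Smooth muscle and pericyte genes summed to 284 to 329.9 CPM in healthy and 163 to 245 CPM in chemotherapy muscle, without overlap. Slow fiber genes, of which 9 were tested and 0 called, summed to 5668 to 12987 CPM in healthy, 8118 to 16069 in tumor and 6475 to 10858 in chemotherapy muscle. Red blood cell genes (0 of 5 called) summed to 440.4 to 1379 CPM, 227 to 588 CPM and 124 to 917 CPM in the same order. Within the healthy group they stood at 836, 924 and 1379 CPM in libraries 1, 3 and 4, and at 440.4 and 732 CPM in libraries 2 and 5. Macrophage genes summed to 215, 261 and 286 CPM in healthy libraries 1, 3 and 4, to 134 and 179.9 CPM in libraries 2 and 5, and to 122 to 232 CPM in chemotherapy muscle. Of macrophage, adipocyte and fast fiber genes 0 were called, and of 4 endothelial genes 1 was higher and 1 lower. The tested markers had passed the filter on low counts, so none of them could be at 0 in all samples. The part of any of these in the Nduf differences was not tested.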

How the data were processed

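Stranded libraries were made from rat gastrocnemius total RNA after ribosomal RNA removal, per the labels' protocols. The deposited table held raw read counts per gene for 17 libraries, as deposited, with no normalisation by the authors. Tools listed, per the submitters' processing notes, are TopHat2 2.0.10, Bowtie2, FastQC 0.11.4, CASAVA 1.9 and Trim Galore 0.4.1. Build, annotation, counting program and strand setting: not given in the sources used here. Thus overlapping genes (14 of 44 Nduf genes in RefSeq) could share reads.

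The 388 unnamed rows (0.206% of counts) were dropped and libraries 11 and 12 summed, leaving 16 samples. A model of the 3 group means (13 residual degrees of freedom) was fitted with edgeR 4.0.16 in R 4.3.3 (TMM, filterByExpr with minimum count 10, robust quasi-likelihood), adjusted over 11856 genes. CPM are scaled by library size and TMM. SE is the log2 fold change divided by the root of its F statistic. On simulated counts of 11738 genes for chemotherapy against healthy, 70 of 100 genes changed 2-fold were called. Each gene was drawn independently, without variation shared between genes, so this share may not hold for the real samples.

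Alternatives used DESeq2 1.42.0, limma 3.58.1 and sva 3.50.0, other scaling and filters, and left out libraries in turn. For the 12 genes with the smallest p, every healthy and tumor value is given, with the lowest, median and highest of the 6 chemotherapy samples. Core subunits and assembly factors are named, except for a gene that is counted but not reported here, and up to 3 called genes of each related list. Ndufc1 and Ndufa6 are named outside this rule, after their values were seen. Genes and lists were chosen with earlier results of these data known.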

Additional observations from a re-analysis of the deposited data

Results flagged for a closer look

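Of 42 sets of sample values checked for a sample far from its group (Dixon's criterion), 1 was marked. In the chemotherapy group, the summed expression of the 44 Nduf genes was 8307 CPM in library 13, while the 5 other samples lay between 7273 and 7585 CPM. Its gap to the nearest sample was 0.698 of the range of the group. Chance marks about 1 group in 20.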

How the results depend on the processing

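For chemotherapy against healthy muscle, the 9 calls among the Nduf genes became 2 with no filter on low counts, 17 with the DESeq2 Wald test and 14 with limma-voom. Over all genes, 865 calls higher and 760 lower became 474 and 410 of 19201, 1454 and 1123 of 11853, and 1564 and 880 of 11856 in the same order. The Nduf calls became 0 with 1 surrogate variable, with the MB or VM suffix as a term, within VM libraries only, and without healthy libraries 1, 3 and 4, where 0 of all genes were called too. Leaving out 1 sample at a time gave 0 to 23 calls. For tumor against healthy it gave 0 to 5, and for chemotherapy against tumor every setting gave 0. The median log2 fold change of chemotherapy against healthy, -0.041, became 0.101 with total counts only and 0.086 without healthy libraries 1, 3 and 4. The 9 called genes kept their sign in every setting run.

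Among the genes described by sample, 870 values kept direction and side of the threshold, 130 lost it, 25 gained it and 19 changed sign. None of the 19 was in chemotherapy against healthy. Only the 9 genes called there could lose the threshold, so all 130 are theirs. The 870 include genes and comparisons with no call to lose. In chemotherapy against tumor with 1 surrogate variable, Ndufa11 was at 0.091, Ndufb10 at 0.136, Ndufb11 at 0.079, Ndufs8 at 0.102, Ndufs1 at -0.096 and Ndufs4 at -0.017. Ndufb10 was also at 0.029 with 17 libraries, 0.007 with total counts only, and, with 1 sample left out at a time, from -0.072 to 0.042. Left out in the same way, Ndufa11 ran from -0.153 to 0.062, Ndufb11 from -0.163 to 0.047 and Ndufs8 from -0.170 to 0.059, above 0 without tumor library 10. In tumor against healthy, Ndufa4 was at -0.060 and Ndufs5 at -0.006 with 1 surrogate variable, and Ndufa4 at -0.007 and Ndufa9 at 0.031 without healthy libraries 1, 3 and 4. The cause was not tested for any of these. No paired analysis was possible because each library carries its own number, so the groups share no replicate number. Depth limits the low genes most, such as Ndufaf2.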
